A study of Equus caballus with 20 samples.

Results

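Prostaglandin synthesis, sensing and breakdown in the oviduct epithelium of mares were followed through 10 genes, taken from the deposited expression table by their symbols. They were the cyclooxygenases PTGS1 and PTGS2, the prostaglandin E synthases PTGES, PTGES2 and PTGES3, the prostacyclin synthase PTGIS, the receptors PTGER2, PTGER4 and PTGFR, and the degrading enzyme HPGD. All 10 were among the 26740 features of the table. The filter on low values, above 1 CPM (the read count scaled to the size of its library) in at least 5 of 20 libraries, kept 8 of the 10 and 14692 features in all, and left out PTGFR and HPGD.

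RNA sequencing had been done on epithelial cells of Warmblood mares, taken 4 days after ovulation from the stretch of oviduct where ampulla and isthmus meet. Pregnant mares gave libraries from the oviduct on the side of ovulation (pregnant ipsilateral, PI) and from the opposite one (pregnant contralateral, PC), and cyclic, non-pregnant mares gave the same 2 kinds (cyclic ipsilateral, CI, and cyclic contralateral, CC). Each group held 5 libraries, numbered 1 to 5. The labels call them biological replicates and do not say which libraries came from 1 mare. All values are TMM-normalized counts, read counts that the authors brought to a common scale across libraries, and they are compared within a gene only, since no transcript lengths were at hand.

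Prostaglandins are made from arachidonic acid, which phospholipases free from membranes. PTGS1, usually the constitutive form, and PTGS2, the inducible one, turn it into the unstable PGH2, and terminal synthases convert PGH2 into PGE2, prostacyclin, PGD2, PGF2α or thromboxane. PGE2 acts on EP receptors, of which EP2 (encoded by PTGER2) and EP4 (PTGER4) raise cyclic AMP and relax smooth muscle, whereas PGF2α acts on FP (PTGFR) through calcium. HPGD begins the inactivation of PGE2 and PGF2α. In the mare, a developing embryo secretes PGE2 and is passed on to the uterus, while unfertilized eggs are usually retained in the oviduct, the background to asking about pregnancy and side in these genes.

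The libraries held 2795168 (PI1) to 10126484 (CI2) reads. They carried the genes of an epithelium with motile cilia: FOXJ1, the master regulator of motile cilia, ran from 2774 to 6344 normalized counts over the 20 libraries, and PAX8, a factor of secretory cells, from 1410 to 2491. The secretory markers OVGP1 and CRISP3 were low or missing, at 0 to 15.4 normalized counts and at 0 reads in every library. Markers of other cells were present too. The summed level of 11 stromal fibroblast markers ranged from 1275 to 7145 in PI, 2043 to 5373 in PC, 2659 to 5570 in CI and 1503 to 8733 in CC, and that of 12 multiciliated markers from 62250 to 82242 in PI, 62312 to 80217 in PC, 48289 to 67585 in CI and 46801 to 73992 in CC. In such bulk samples fewer cells of a type and less RNA per cell cannot be told apart.

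No prostaglandin gene passed the test for pregnancy or for side. Among the genes of PGE2 receptors, PTGER2 was higher in all 5 pregnant contralateral libraries (187 ± 28.0 normalized counts) than in any cyclic contralateral one (135 ± 12.8, SD, n = 5 each). Of the 14692 features 46 (0.313%) showed that separation. PTGER4 averaged more in pregnant mares on both sides (333 ± 146 in PI and 421 ± 29.3 in PC, against 234 ± 74.3 in CI and 315 ± 144 in CC). PTGES, the inducible PGE2 synthase, and PTGIS had lower contralateral averages in pregnant than in cyclic mares. HPGD was almost without reads in the pregnant ipsilateral libraries. The tests behind these levels are limma fits over all 14692 features, which called 0 features at an adjusted p under 0.05 in each of 6 comparisons.

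**Figure D1:**
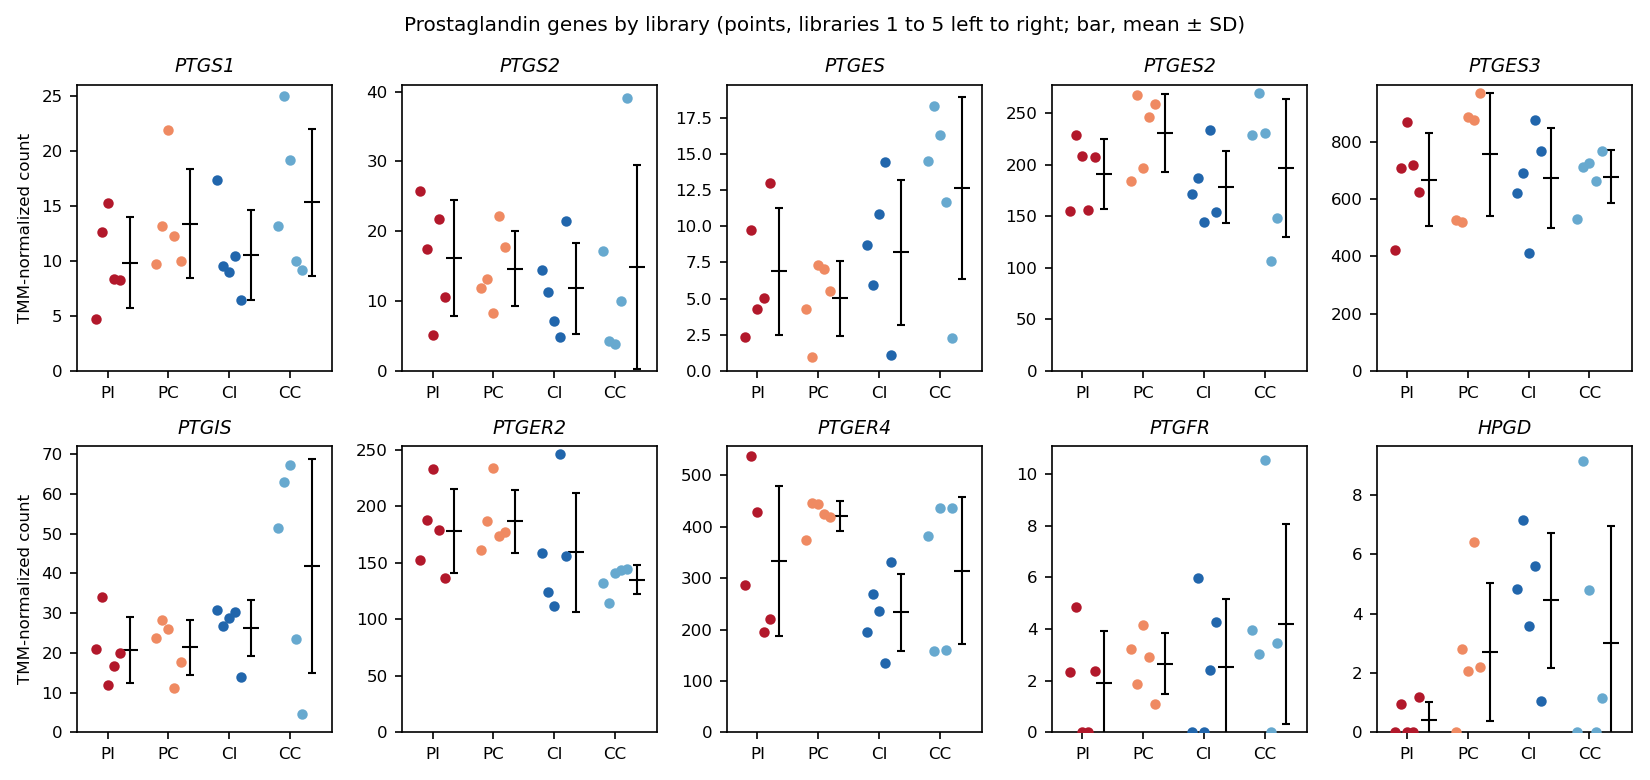
TMM-normalized counts (vertical axes, from 0) of the 10 prostaglandin genes in the groups PI, PC, CI and CC, with 1 point per library and a bar for the mean ± SD of 5 libraries, cut off at 0. PTGER2 lies above 161 in every PC library and below 145 in every CC library, a separation shown by 46 features (0.313%). PTGER4 is tightly grouped in PC, and HPGD stays below 1.2 in every PI library.

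In the contralateral oviducts (PC against CC) limma called 0 features, edgeR 0 and DESeq2 6 (0.0408%), none of them a prostaglandin gene. At an unadjusted p under 0.05 limma gave 669 features, 4.55% of those tested, against 1 of the 8 prostaglandin genes, PTGER2. In the ipsilateral oviducts (PI against CI) limma, edgeR and DESeq2 each called 0 features. There 514 features, 3.5%, had an unadjusted p under 0.05, with 0 of the 8 among them. For the mean of both oviducts, limma took each pregnant or cyclic number as the mean of its ipsilateral and contralateral library (5 against 5). In edgeR and DESeq2 it was the sum of their reads, in which the deeper library weighs more. Standard errors and p-values rest on the numbers, although not all cyclic ones deviated together. Here limma and edgeR called 0 features and DESeq2 15 (0.102%), again without a prostaglandin gene. The unadjusted count by limma was 649, 4.42%, with 0 of the 8. The log2 differences of the 8 had medians of 0.05 ipsilaterally, 0.20 contralaterally and 0.12 for the mean of both, beside −0.01, 0.01 and −0.0004 over all features. Each of the 8 genes had an adjusted p by limma of 0.9991 ipsilaterally, 0.9998 contralaterally and 0.9993 for the mean of both; the exact permutation p-values given below are for 1 gene at a time and are not adjusted.

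Among the receptors, PTGER2 had the narrowest spread. Its normalized counts were 161, 187, 234, 174 and 177 in PC, against 132, 114, 141, 144 and 145 in CC. Every PC library was therefore above every CC library, a separation that 46 features (0.313%) showed in that direction. The means were 187 ± 28.0 in PC and 135 ± 12.8 in CC (SD, n = 5 each), a log2 difference of 0.45 ± 0.19 (SE) with an adjusted p of 0.9998 by limma. The exact permutation test of PTGER2 alone, over 252 arrangements of the 10 libraries, gave p = 0.00794, the smallest it can give. Over all alternative settings the difference stayed between 0.37 and 0.50, with an adjusted p of 0.638 or more. With the multiciliated marker score as a covariate it was 0.45 ± 0.23.

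On the ipsilateral side PTGER2 stood at 152, 188, 233, 179 and 137 in PI, against 158, 125, 112, 246 and 156 in CI. These groups overlapped throughout, with the highest of all 20 values in CI4. Their means were 178 ± 37.1 and 159 ± 52.6, and the log2 difference of 0.19 ± 0.19 was 0.35 without CI4 and 0.07 without CI3. Whether the pregnancy difference of PTGER2 depended on the side was tested by the interaction, −0.27 ± 0.26 (adjusted p = 1) and −0.098 without CI4. For the mean of both oviducts the difference was 0.32 ± 0.16 (exact permutation p = 0.0714).

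PTGER4 had 374, 446, 444, 424 and 418 normalized counts in PC, against 382, 158, 437, 160 and 436 in CC. The PC libraries kept within a coefficient of variation of 6.96%, while CC held 3 libraries within the range of PC and 2, numbers 2 and 4, far below it, with a coefficient of 45.6%. In PI the counts were 286, 537, 429, 195 and 220, against 196, 270, 236, 134 and 331 in CI. PI2 and PI3 lay above every CI library and the other PI libraries among them. The log2 difference was 0.56 ± 0.32 contralaterally (exact permutation p = 0.230), 0.46 ± 0.32 ipsilaterally (p = 0.238) and 0.51 ± 0.24 for the mean of both (p = 0.111), none of which passed. The contralateral value was 0.35 without CC2 and the ipsilateral one 0.27 without PI2. Of the 5 pregnant numbers, 2 had a mean of both oviducts above every cyclic one.

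The multiciliated marker sum was higher on average in the pregnant groups, at 69980 in PI and 69182 in PC, against 58171 in CI and 58057 in CC. With its score as a covariate the PTGER4 difference for the mean of both oviducts was 0.35 ± 0.33. Without the 2 libraries of cyclic number 4 it was 0.32 and without those of cyclic number 5 it was 0.66 (adjusted p = 0.742).

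PTGFR was at the limit of detection. Its 5 libraries together held 8 reads in PI, 15 in PC, 17 in CI and 22 in CC. That is 0.317 CPM in PI (95% exact Poisson interval 0.137 to 0.625), 0.447 in PC (0.250 to 0.738), 0.518 in CI (0.302 to 0.830) and 0.770 in CC (0.483 to 1.17). The intervals of all 4 groups overlapped, and such intervals cover counting error only.

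**Figure D2:**
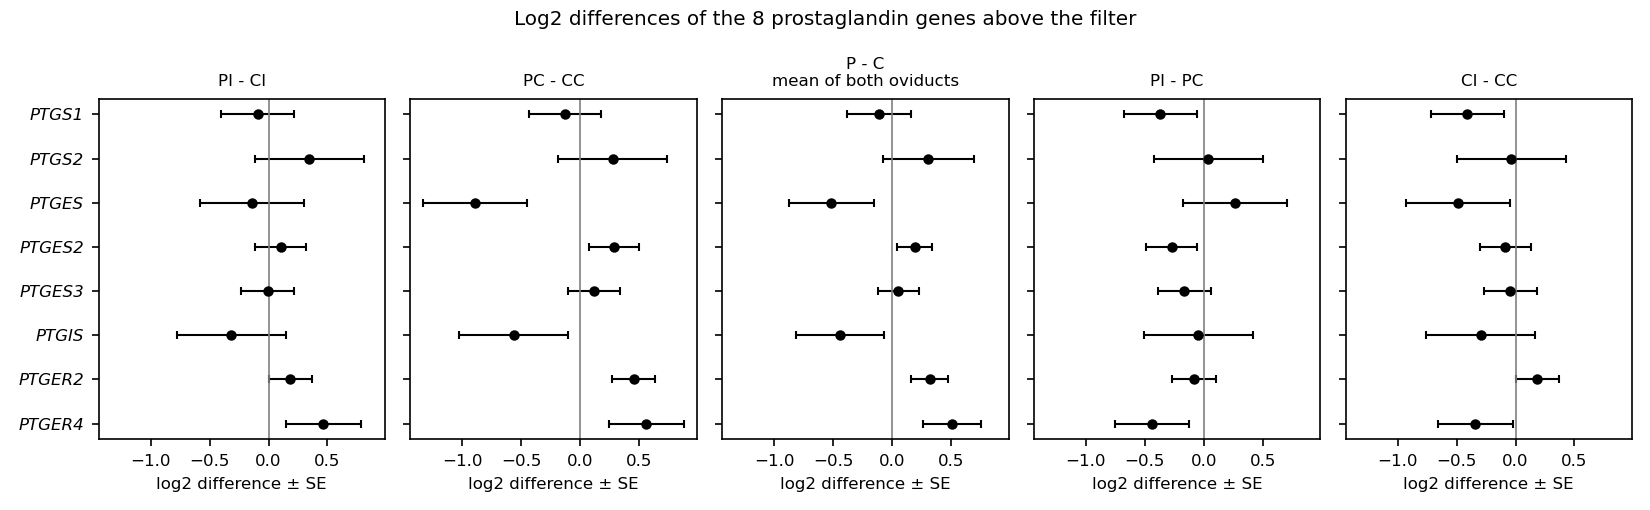
Log2 differences (horizontal axes, with SE bars) of the 8 prostaglandin genes above the filter in 5 comparisons, where a positive value means higher in the first group named. The 2 PGE2 receptors lie to the right of 0 in all 3 comparisons of pregnant with cyclic mares, and PTGES and PTGIS to the left in all 3; no gene passed the test.

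Among the enzymes, the cyclooxygenases gave no difference with pregnancy larger than its standard error. PTGS2 had 25.8, 17.5, 5.09, 21.8 and 10.6 normalized counts in PI and 11.8, 13.2, 8.33, 22.2 and 17.7 in PC. The cyclic libraries had 14.5, 11.3, 7.20, 4.80 and 21.4 in CI and 17.1, 4.27, 3.84, 10.02 and 39.1 in CC. All 4 groups overlapped, and the highest value was that of CC5, a library of 34 reads for this gene. Group means ran from 11.8 ± 6.52 in CI to 16.2 ± 8.35 in PI. The spread within groups, an SD of 0.77 on the log2 scale, was larger than that of 87.8% of the features tested.

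PTGS1 had 4.69, 12.6, 15.3, 8.39 and 8.27 normalized counts in PI, 9.69, 13.2, 21.9, 12.3 and 9.98 in PC, 17.4, 9.54, 9.0, 10.4 and 6.43 in CI, and 13.2, 25.02, 19.2, 10.02 and 9.19 in CC. The pregnant and the cyclic ranges overlapped on both sides. With means of 9.85 ± 4.14 in PI, 13.4 ± 4.96 in PC, 10.6 ± 4.10 in CI and 15.3 ± 6.69 in CC, its larger contrasts were those of side, given further on.

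PTGES, the microsomal synthase that is induced together with PTGS2 in many tissues, was measured by only 1 to 30 reads a library. It had 4.31, 0.943, 7.29, 7.01 and 5.54 normalized counts in PC, against 14.5, 18.3, 16.3, 11.7 and 2.30 in CC. Of the CC libraries 4 were above every PC library, and CC5 was below 4 of the 5. The log2 difference was −0.89 ± 0.44 (exact permutation p = 0.0794), with 29 reads in all of PC and 67 in all of CC. It was −1.24 without CC5 and −0.66 without PC2.

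In the ipsilateral oviducts PTGES stood at 2.34, 9.72, 4.24, 5.03 and 13.0 in PI, against 8.69, 5.96, 10.8, 14.4 and 1.07 in CI. The CI range enclosed that of PI, and the difference was within its standard error. The interaction of pregnancy and side was 0.75 ± 0.62 (adjusted p = 1) and 0.43 without CI5. For the mean of both oviducts the difference was −0.51 ± 0.36 (exact permutation p = 0.190). Leaving out the 2 libraries of cyclic number 5 gave −0.85 ± 0.26 (adjusted p = 0.714).

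The lower multiciliated marker sums of the cyclic groups stood beside the higher PTGES levels. With the multiciliated score as a covariate the contralateral difference of PTGES was −0.12 ± 0.45 and that of the mean of both oviducts 0.23 ± 0.38, on the other side of 0.

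The other PGE2 synthases were steadier. PTGES2, a membrane-associated synthase, averaged 191 ± 33.7 in PI, 231 ± 38.0 in PC, 178 ± 35.1 in CI and 197 ± 66.96 in CC, with ranges of 155 to 228, 184 to 268, 144 to 234 and 107 to 270. The CC range enclosed those of the other groups. Its log2 difference was 0.29 ± 0.22 in the contralateral oviducts, 0.09 without CC4, and 0.19 ± 0.15 for the mean of both. PTGES3, the cytosolic synthase that is also the HSP90 co-chaperone p23, averaged 667 ± 163 in PI, 756 ± 215 in PC, 673 ± 174 in CI and 678 ± 91.7 in CC. All its log2 differences lay within 1 standard error of 0.

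PTGIS had 23.7, 28.3, 26.0, 11.1 and 17.7 normalized counts in PC, against 51.4, 62.9, 67.2, 23.4 and 4.60 in CC. Libraries CC1, CC2 and CC3 were above every PC library, CC4 was among them and CC5 was below all. The log2 difference was −0.57 ± 0.46 (exact permutation p = 0.421), −1.11 without CC5 and −0.31 without CC3. In PI the counts were 21.1, 34.0, 11.9, 16.8 and 20.1, against 30.9, 26.8, 28.8, 30.4 and 13.9 in CI. Here 4 of the 5 CI libraries lay above 4 of the 5 PI libraries, and the difference was within its standard error. For the mean of both oviducts it was −0.44 ± 0.37, −0.81 ± 0.26 without cyclic number 5 (adjusted p = 0.714), and 0.37 ± 0.38 with the multiciliated score as a covariate.

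HPGD, the 15-hydroxyprostaglandin dehydrogenase, was counted 0, 1, 0, 0 and 1 times in PI, against 5, 12, 2, 7 and 1 times in CI. Its reads numbered 0, 3, 2, 11 and 2 in PC, against 0, 15, 5, 0 and 1 in CC. In normalized counts 4 of the 5 PI libraries lay below every CI library, and PI5 was at 1.18 beside 1.07 in CI5. Pooled over 5 libraries this is 0.0793 CPM in PI (95% exact Poisson interval 0.00961 to 0.287), against 0.823 in CI (0.543 to 1.20). In the contralateral oviducts it is 0.537 in PC (0.318 to 0.848), against 0.735 in CC (0.455 to 1.12). These intervals cover counting error only and not the spread between libraries, and 12 of the CI reads came from CI2.

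When all 20350 features with reads were fitted without the filter, HPGD gave a log2 difference of −1.06 ± 0.36 between PI and CI (adjusted p = 1), 0.06 ± 0.36 between PC and CC, and an interaction of −1.12 ± 0.51 (adjusted p = 0.9999). The exact permutation test of HPGD alone gave p = 0.0159 between PI and CI and p = 0.929 between PC and CC. A count of 0 allows up to 3 reads, or 1.75 to 7.03 normalized counts depending on the library, and HPGD had 3 reads or fewer in 14 of the 20 libraries. PI1, with 0 reads, was the shallowest library.

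The side of ovulation was compared within pregnant and within cyclic mares. In pregnant mares (PI against PC) limma, edgeR and DESeq2 called 0 features, and limma gave 112 (0.762%) at an unadjusted p under 0.05, with 0 of the 8 prostaglandin genes among them. These fits took the groups as unpaired. In cyclic mares (CI against CC) the 3 tools called 0 as well, with 42 (0.286%) unadjusted and again 0 of the 8. For the interaction the 3 tools called 0, with 47 (0.32%) unadjusted and 0 of the 8. PTGS1 was lower in PI than in PC in 5 of 5 same-numbered pairs, with a log2 difference of −0.37 ± 0.31. Its reads were 2, 13, 18, 5 and 7 in PI, against 9, 14, 21, 21 and 9 in PC. How many of all features were lower in as many pairs was not counted, here or for the genes below. Of all features 44.6% had a log2 difference above 0. The exact permutation test of PTGS1 over the 32 sign changes of the 5 pairs gave p = 0.0625, the smallest it can give, so that this design cannot reach 0.05. With the replicate number as a block the standard error was 0.26 (adjusted p = 0.822). The value was −0.20 without PI1, −0.11 without PI1, PI4 and CI3, in each of which 1 feature took a large share of the reads, and −0.13 with the read total as a covariate.

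PTGER4 was lower in PI in 4 of the 5 pairs, by a log2 difference of −0.44 ± 0.32 that was −0.27 without PI4, and PTGES2 likewise in 4 of 5 pairs, by −0.27 ± 0.22. In cyclic mares PTGS1 gave −0.41 ± 0.31, PTGES −0.49 ± 0.44, PTGER4 −0.34 ± 0.32 and PTGER2 0.19 ± 0.19. Single libraries moved these values: PTGER2 was 0.018 and PTGER4 −0.16 without CI4, PTGES −0.16 without CI5 and PTGS1 −0.24 without CC2. In all 4 of these genes the CI and CC ranges overlapped. None of these passed the test, and the remaining differences of side in the 8 genes above the filter lay within 1 standard error of 0. In the fit without the filter HPGD, with its few reads, gave −0.65 ± 0.36 between PI and PC. Between CI and CC it gave 0.47 ± 0.36, and neither passed the test.

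Libraries CI5 and CC5 stood apart from the other cyclic ones in 3 of the 10 genes. The share of all features in which they did so was not counted, so whether this is particular to the prostaglandin genes cannot be said. Over all features tested, the deviations of CI5 and CC5 from their group means ran together (r = 0.62). PTGS2 stood at 21.4 and 39.1 normalized counts in CI5 and CC5, against 3.84 to 17.1 in the other 8 cyclic libraries. PTGES stood at 1.07 and 2.30 there, against 5.96 to 18.3, and PTGIS at 13.9 and 4.60, against 23.4 to 67.2. All 3 genes were thus outside the range of the other cyclic libraries, in the same direction on both sides. PTGES2, PTGES3, PTGER2, PTGER4, PTGFR and HPGD were inside that range in both libraries, and PTGS1 was below it in CI5 and inside it in CC5. The multiciliated marker sum was also the highest of the cyclic libraries, at 67585 and 73992 against 46801 to 66280. The stromal sum was 2659 and 1503 against 2483 to 8733, and the mast cell marker sum was 33.2 and 33.3 against 41.7 to 156. Of 7 mast cell markers 5 were found and only 2, KIT and GATA2, passed the filter. That sum was not checked as a measure of mast cells. The part of these cell types in the 3 genes' levels was not tested.

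The enzymes also differed in how they followed the stromal marker sum over the 20 libraries, which share a common scaling and may share mares, so that the following are descriptions without a test. PTGS2 ran against it, with Pearson r = −0.82 and Spearman rho = −0.77 on log2 values, and r = −0.74 without the 2 libraries farthest from the median sum. Within the 10 pregnant libraries r was −0.77 and within the 10 cyclic ones −0.85. In the libraries with the highest sums, PI3, CC2 and CC3, PTGS2 was at 5.09, 4.27 and 3.84. PTGS1 ran with the stromal sum (r = 0.75, rho = 0.64, 0.86 in pregnant and 0.65 in cyclic libraries). PTGIS had r = 0.82 with it within the cyclic libraries and −0.09 within the pregnant ones, a difference that was not tested.

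PTGES2 ran with the summed level of 9 secretory markers (r = 0.83, rho = 0.87, and r = 0.85 without the 2 farthest libraries). Of these 9 markers 7 passed the filter, CRISP3 had no reads and OVGP1 was low. The sum thus rests mostly on PAX8, KRT7, WT1, SOX17, EPCAM and CDH1, and it was not checked as a measure of secretory cells. Against the multiciliated sum r was −0.60 for PTGES and −0.68 for PTGIS over 20 libraries, but −0.13 and −0.01 within the pregnant ones and −0.69 and −0.86 within the cyclic ones. PTGS1 and PTGS2 themselves ran in opposite directions, with r = −0.57. PTGES ran against PTGS2 (r = −0.60) and with PTGS1 (r = 0.49) over the 20 libraries.

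**Figure D3:**
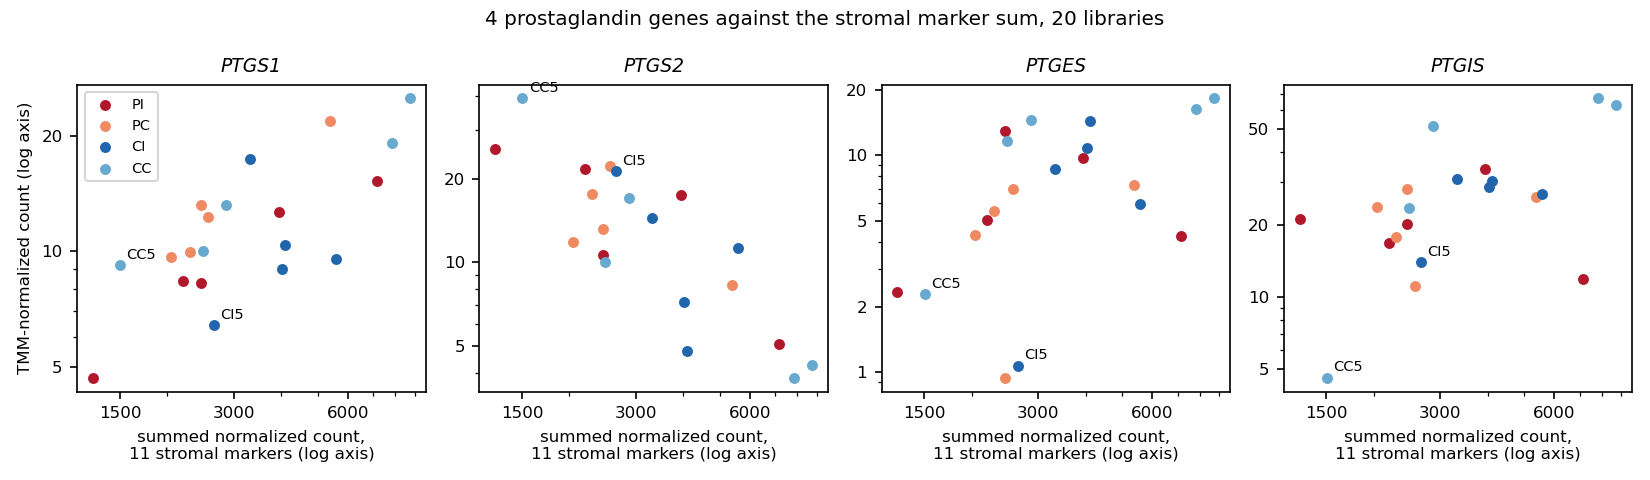
TMM-normalized counts (vertical, log axis) of PTGS1, PTGS2, PTGES and PTGIS against the summed normalized count of 11 stromal fibroblast markers (horizontal, log axis), 1 point per library, coloured by group. PTGS2 is low in the 3 libraries with the highest stromal sums (5.09 in PI3, 4.27 in CC2 and 3.84 in CC3) and highest in CC5, and CI5 and CC5 hold low PTGES and PTGIS.

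The features whose log2 values correlated best with each gene over the 20 libraries were of several kinds. For PTGIS they were MXRA8, a matrix-remodelling associated protein of fibroblasts (r = 0.91), FAIM2 (0.89) and SLC22A17 (0.87). For PTGES they were CALD1, the actin-binding caldesmon of contractile cells (r = 0.78), the growth factor IGF1 (0.77) and HPSE2 (0.77). PTGER2 was most like the secreted ribonuclease RNASE1 (r = 0.77), PDZK1IP1 (0.75) and the kynureninase KYNU (0.72). PTGER4 was most like C9orf171 (r = 0.78), CFAP20, a protein of ciliary microtubules (0.76), and the tight junction protein F11R (0.73).

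PTGS2 was most like the channel TRPM3 (r = 0.83), the methyltransferase SMYD2 (0.83) and ELL3 (0.82), and PTGS1 most like the membrane protein STOM (0.83), LPCAT1 (0.81) and GPR108 (0.81). The abundant synthases had closer companions: APLP2 (0.95), CARKD (0.91) and FADS6 (0.91) for PTGES2, and SNX3 (0.92), TCEA1 (0.90) and MORF4L1 (0.90) for PTGES3. These values are maxima over all features with a symbol and are a description of likeness only.

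The rest of the pathway was described from lists of genes, 0 of which passed the test in limma. Apart from NR4A1, every gene named from them had an adjusted p of 0.999 or above in each comparison of pregnant with cyclic mares. The genes named were those of each list with the smallest p for the mean of both oviducts. Their exact permutation p-values come from the same libraries, so low values partly reflect that choice and are no separate test. PTGDR, PTGR1 and ZADH2 were not picked by p, since no other gene of their lists passed the filter. Of 16 genes that release arachidonic acid 13 were found in the table by symbol and 10 passed the filter, with a median log2 difference of −0.05 for the mean of both oviducts. The largest signals by p were PLA2G4A, the cytosolic phospholipase A2, at −0.31 ± 0.19, and the secreted PLA2G12A at 0.29 ± 0.20. They were −0.20 without pregnant number 1 and 0.15 without pregnant number 4, and −0.049 with the multiciliated score and 0.078 with the leukocyte and macrophage score as a covariate. Of 9 symbols of further prostanoid synthases, which include an older and a newer symbol of 1 gene, 5 were found and 3 passed, among them AKR1B1, an aldo-keto reductase that can make PGF2α, and TBXAS1, the thromboxane synthase.

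AKR1B1 had 169, 357, 209, 235 and 200 normalized counts in PI, against 342, 345, 249, 387 and 237 in CI. It was below every CI library in 4 of the 5 PI libraries, with a log2 difference of −0.43 ± 0.21 (exact permutation p = 0.0873). In PC it stood at 253, 370, 270, 338 and 263, against 431, 376, 447, 262 and 249 in CC, where the ranges overlapped. AKR1B1 was lower in PI than in PC in 5 of 5 pairs, by −0.38 ± 0.21. The multiciliated sum ran opposite to it over the 20 libraries (r = −0.80), and with that score as a covariate the difference for the mean of both oviducts was 0.05, against −0.32 ± 0.17 without. TBXAS1 gave −0.36 ± 0.23 for the mean of both oviducts and was lower in PI than in PC in 5 of 5 pairs. For AKR1B1 and TBXAS1 alike, the share of all features with 5 of 5 such pairs was not counted.

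Of 6 other prostanoid receptor genes 4 were found in the table and 1 passed the filter: PTGDR, the Gs-coupled DP receptor for PGD2. It had 176, 121, 19.5, 40.3 and 7.09 normalized counts in PI, against 19.3, 15.5, 3.60, 6.40 and 13.9 in CI. In PC it had 156, 66.9, 28.1, 64.3 and 26.6, against 14.5, 2.44, 4.80, 3.34 and 71.3 in CC. Some cyclic libraries held few reads of PTGDR, with 2 in CI3, 4 in CC2, 5 in CC3 and 2 in CC4. PI1 to PI4 were above every CI library and all 5 PC libraries above CC1 to CC4, while PI5 and CC5 lay within the other group.

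The log2 difference of PTGDR was 1.79 ± 0.75 ipsilaterally (exact permutation p = 0.0556), 2.18 ± 0.75 contralaterally (p = 0.0476) and 1.99 ± 0.62 for the mean of both (p = 0.0397). The contralateral value was 2.82 without CC5. For the mean of both it was 1.19 both without PI1, PI4 and CI3 and with the multiciliated score as a covariate. Over all alternatives it stayed above 0, from 1.19 to 2.39, with an adjusted p by limma, edgeR or DESeq2 of 0.195 or more. Leukocyte marker sums averaged 834 in PI, 987 in PC, 679 in CI and 551 in CC. PTGDR ran with them (r = 0.57, rho = 0.66, n = 20), with r = 0.36 within the pregnant and 0.49 within the cyclic libraries. Its r was as large with the multiciliated sum (0.58) and the stromal sum (−0.58) over the 20 libraries. With the endothelial sum r was 0.82 within the pregnant and −0.20 within the cyclic libraries. PTGDR is known from immune cells and mucosal epithelia, and the part of any cell type in its level was not tested.

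Prostaglandin transport was represented by 8 genes, of which 6 passed the filter, with a median log2 difference of 0.02. SLCO2A1, the carrier that takes prostaglandins up for breakdown, had 21.1, 13.6, 8.49, 18.5 and 2.36 normalized counts in PI, against 2.90, 9.54, 0, 8.0 and 10.7 in CI. In PC it had 15.1, 13.2, 14.6, 15.8 and 16.6, against 7.91, 4.27, 0.960, 5.01 and 17.2 in CC. SLCO2A1 was counted only 0 (CI3) to 27 (PC4) times a library, and 0 reads in CI3 allow up to 5.40 normalized counts. All 5 PC libraries were above CC1 to CC4 and below CC5. The difference was 0.92 ± 0.38 for the mean of both (exact permutation p = 0.0476), 0.60 without cyclic number 3 and 0.35 without PI1, PI4 and CI3. The ipsilateral part of it, 0.79 ± 0.47, was −0.03 without PI1, PI4 and CI3.

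ABCC4, an exporter that carries PGE2 out of cells, averaged 456 ± 63.9 in PC, against 589 ± 104 in CC, and 445 ± 41.1 in PI, against 523 ± 109 in CI. Of the PC libraries 4 lay below every CC library. The log2 difference was −0.36 ± 0.15 contralaterally (exact permutation p = 0.0159) and −0.29 ± 0.14 for the mean of both (p = 0.0397), which was −0.19 without cyclic number 2. Of 4 symbols of further breakdown, which include an older and a newer symbol of 1 gene, 2 were found, PTGR1 and ZADH2, and both passed the filter, with differences within 1 standard error of 0.

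**Figure D4:**
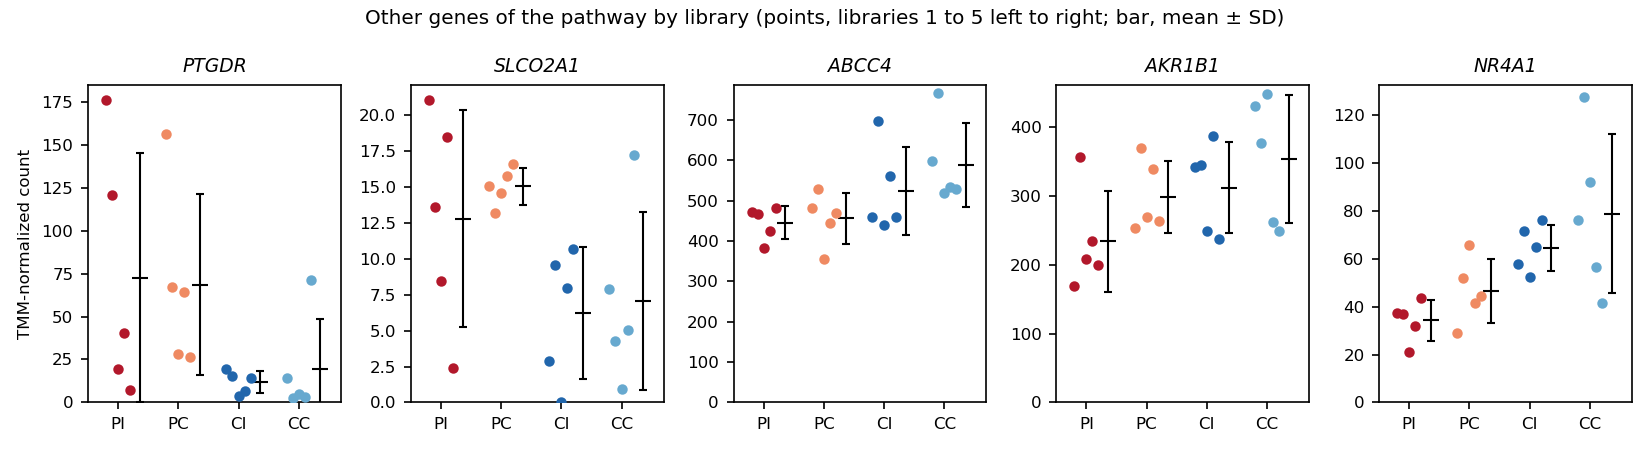
TMM-normalized counts (vertical axes, from 0) of 5 other pathway genes in PI, PC, CI and CC, with 1 point per library and a bar for the mean ± SD of 5 libraries, cut off at 0. PTGDR and SLCO2A1 have higher averages in pregnant mares apart from the high CC5 value of each (71.3 and 17.2), and every PI library lies below every CI library for NR4A1, as in 59 features (0.402%).

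Downstream of the receptors, 16 of 18 genes of the cyclic AMP arm of EP2 and EP4 were found and 14 passed the filter, with a median log2 difference of 0.03 for the mean of both oviducts, and 8 of the 14 were above 0. ADCY8, an adenylyl cyclase counted 0 to 35 times a library, gave −1.15 ± 0.39 (exact permutation p = 0.0317), and PRKAR2B, a regulatory subunit of protein kinase A, −0.27 ± 0.22, which was −0.11 without cyclic number 2. All 10 genes of the calcium arm of FP passed the filter, with a median of −0.12. ITPR1, a calcium channel of the endoplasmic reticulum, gave −0.35 ± 0.15 (exact permutation p = 0.0714) and the phospholipase PLCB2 0.43 ± 0.24, which was 0.28 without pregnant number 1.

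Of 11 genes known to respond to PGE2 in other tissues 9 were found and 5 passed the filter. Their median log2 difference was −0.02 for the mean of both oviducts, with 2 of the 5 above 0 and 3 below. NR4A1, an immediate early nuclear receptor induced by cyclic AMP among other signals, had 37.5, 36.9, 21.2, 31.9 and 43.7 normalized counts in PI, against 57.9, 71.5, 52.2, 64.8 and 76.1 in CI. Every PI library was below every CI library, as in 59 features (0.402%). In PC the counts were 29.1, 51.8, 65.6, 41.5 and 44.3, against 76.4, 128, 92.1, 56.8 and 41.4 in CC, where the groups overlapped.

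The means of both oviducts of NR4A1 were below every cyclic mean in all 5 pregnant numbers, as in 47 features (0.32%). The log2 difference was −0.78 ± 0.18 (adjusted p = 0.789 by limma). DESeq2, on the summed reads of both oviducts, gave −0.85 with an adjusted p of 0.0288. Over all alternatives the difference lay between −0.85 and −0.57. The multiciliated sum ran opposite to NR4A1 (r = −0.71 over 20 libraries, −0.22 within the pregnant and −0.69 within the cyclic ones) and with its score as a covariate the difference was −0.57 (adjusted p = 0.983). VEGFA, the vascular growth factor, gave 0.37 ± 0.20, and 0.20 without pregnant number 1.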

How the data were processed

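The authors deposited 1 table of TMM-normalized counts, a signal made of each library's gene counts times 1 factor. CASAVA 1.8 is the tool named in the submitters' processing notes; aligner, counter, strand setting, build and annotation were not given in the sources at hand, so no coordinates are printed and overlapping or antisense genes stay uncertain. Per the labels' protocols a stranded total RNA kit with ribosomal RNA depletion was used, while the molecule label gives polyA RNA. All 20 columns matched 1 sample by name. The values were whole multiples of the smallest (100% within 0.01 reads), so reads were recovered, 2795168 to 10126484 a library, and used for CPM, edgeR and DESeq2.

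Features above 1 CPM in at least 5 libraries (14692, of which 12430 had a symbol) were tested with limma 3.58.1 (trend, robust, R 4.3.3) on log2(value + 3.03 normalized counts, equal to 0.5 CPM). On this scale differences understate the change of low genes. All 20 libraries entered 1 fit of 4 group means, with a second fit on 10 means of the ipsilateral and contralateral library of a number. Tests were 2-sided, with Benjamini-Hochberg adjustment over all features at 0.05; the procedure was tested on simulated data. Single genes were also compared by 2-sided exact permutation tests on the same log2 values (252 arrangements of 5 against 5, or 32 sign changes of 5 pairs). edgeR 4.0.16 and DESeq2 1.42.0 were alternatives, beside other pseudocounts, filters, scaling, covariates, a replicate block and libraries left out. For both oviducts together, edgeR and DESeq2 took the summed reads of the 2 libraries of a number in place of the mean. Log2 differences smaller than their standard error are given as levels only, a rule chosen after the values were seen.

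The 10 genes and all lists were chosen with earlier results of these data known. Besides the 10, the text names the 2 genes of each pathway list with the smallest p for the mean of both oviducts and the 3 features most correlated with each gene. Same-numbered pregnant libraries deviated together (r = 0.530 to 0.700 over features, in 5 of 5 pairs). Their numbers were therefore taken as pairs in the counts of pairs and the sign-change tests, though no label says so. The main fits of side did not use the pairs, which entered a fit only with the replicate block. Since nothing but the labels says that libraries are separate mares, p-values measure the spread between these libraries. No libraries of a group agreed within sampling noise.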

Additional observations from a re-analysis of the deposited data

Results flagged for a closer look

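In 6 of 99 groups of 5 libraries, over the prostaglandin genes and the pathway genes named here, 1 library lay far from the other 4 relative to the range of the group; chance gives about 1 in 20. PTGS1 was at 21.9 normalized counts in PC3, the highest of its group. PTGIS was at 13.9 in CI5, the lowest of its group. PTGDR was at 71.3 in CC5, PRKAR2B at 158 in PI2, ITPR1 at 1448 in PC3 and PLCB2 at 151 in CI1, each the highest of its group.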

How the results depend on the processing

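Across the 58 log2 differences larger than their standard error and 1738 alternative values, 1729 kept their direction and their side of the threshold, 1 came to pass it (NR4A1 for both oviducts, DESeq2 on summed reads) and 8 changed sign. Without PI1, PI4 and CI3 SLCO2A1 between PI and CI was −0.028. With the multiciliated score as a covariate, PTGIS, PLA2G4A and AKR1B1 between PC and CC were 0.38, 0.081 and 0.15, and PTGES, PTGIS, AKR1B1 and PRKAR2B for the mean of both oviducts 0.23, 0.37, 0.048 and 0.0023; the cause was not tested. Of 36 further differences within 1 standard error of 0, 32 changed sign in at least 1 alternative (138 of 1145 values) and 0 values passed the threshold. The count of features called, 0 in each comparison, became 1 between PI and CI (multiciliated covariate), 1 between PC and CC without TMM and 1 with the read total as a covariate, 6 between PC and CC by DESeq2 and 15 for both oviducts by DESeq2 on summed reads. Leaving out any 1 library called 0. Depth limits PTGES, PTGFR and HPGD most.

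With the replicate number as a block the count of calls was 0 in each of the 5 comparisons fitted with it, so no call changed; the unadjusted counts were 464 between PI and PC, 240 between CI and CC and 267 for the interaction. The cyclic numbers were not taken as pairs in the comparison of sides, but were averaged by number for the mean of both oviducts, where the difference does not depend on the numbers and its standard error and p do: r ran from −0.041 to 0.679, 3 of 5 were above 0.1, and 3 of 5 pairs correlated best with their own number.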
